A study of Homo sapiens with 9 samples.

Results

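The baseline nuclear transcriptome of U2OS cells was described from the 3 siControl libraries of a series of 9. U2OS is a human osteosarcoma line, a bone tumour line that grows as a mesenchymal, adherent culture and keeps its telomeres by a telomerase-independent pathway. Every library was made from nuclear RNA of U2OS cells 48 hours after transfection with 15 nM of 1 siRNA: siControl, siDyskerin (against dyskerin, the pseudouridine synthase encoded by DKC1) or siGAR1 (against GAR1, a partner protein of dyskerin in the H/ACA complex), with 3 libraries a group. The siControl cells therefore went through transfection with an siRNA and its lipid carrier too, and no library from cells without transfection was analysed here. The members were the libraries labelled siControl, chosen by label and by no measured value, and each of 58425 genes was represented by the transcript that held the most reads over them.

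A nucleus holds newly made and retained RNA beside mature mRNA that waits for export. Its most stable RNAs are short and noncoding: small nuclear RNAs splice pre-mRNA, small nucleolar RNAs guide modification and cleavage of ribosomal RNA, RN7SK holds the elongation factor P-TEFb in an inactive complex, and RMRP and RPPH1 are the RNA subunits of the endonucleases RNase MRP and RNase P. Long noncoding RNAs such as MALAT1, which gathers in splicing speckles, and NEAT1, the scaffold of paraspeckles, stay in the nucleus, whereas the signal recognition particle RNA (RN7SL genes), Y RNAs, vault RNAs and mitochondrial transcripts belong to the cytoplasm or its organelles.

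Short RNAs whose levels the description turns on are shown here as DNA letters of GENCODE 44 on GRCh38, at most their first 250 bases, all in lower case except a defining element where one is named. RMRP is a nucleolar RNA, and none of its 50-base stretches occurs elsewhere, meaning in the most-read transcript of a gene at another locus. Its level thus does not depend on how reads shared with those transcripts were counted. Sequence outside those transcripts was not searched. In SNORA73A (U17, an H/ACA small nucleolar RNA needed for ribosomal RNA cleavage) the capitals mark the ACA box, which starts at base 201 of 206. In RNU2-2P, a gene for the U2 small nuclear RNA, they mark the stretch that pairs with the branch point of an intron, from base 33. In TERC, the telomerase RNA, which had no read here, they mark the template for telomere repeats, from base 46.
RMRP, chr9:35657768-35658017, minus strand: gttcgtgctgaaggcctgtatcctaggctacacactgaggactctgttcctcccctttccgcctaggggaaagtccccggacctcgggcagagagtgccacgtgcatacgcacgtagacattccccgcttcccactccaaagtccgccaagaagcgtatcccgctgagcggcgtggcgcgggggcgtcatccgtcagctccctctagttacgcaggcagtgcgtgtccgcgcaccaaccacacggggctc
RN7SK, chr6:52995621-52995870, plus strand: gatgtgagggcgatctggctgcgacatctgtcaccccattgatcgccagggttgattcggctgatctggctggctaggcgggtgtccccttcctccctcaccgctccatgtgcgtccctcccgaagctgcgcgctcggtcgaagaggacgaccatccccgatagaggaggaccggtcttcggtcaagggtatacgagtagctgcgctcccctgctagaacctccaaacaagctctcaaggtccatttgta
SNORA73A, chr1:28507366-28507571, plus strand: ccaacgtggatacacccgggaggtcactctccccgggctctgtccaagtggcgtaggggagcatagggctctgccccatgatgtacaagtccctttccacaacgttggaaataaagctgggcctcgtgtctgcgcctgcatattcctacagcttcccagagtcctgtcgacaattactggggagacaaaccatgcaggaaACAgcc
RNU2-2P, chr11:62841619-62841809, minus strand: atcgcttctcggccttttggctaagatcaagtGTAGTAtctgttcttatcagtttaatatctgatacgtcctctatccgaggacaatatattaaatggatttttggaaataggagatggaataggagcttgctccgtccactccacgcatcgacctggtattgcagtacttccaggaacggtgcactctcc
TERC, chr3:169764811-169765060, minus strand: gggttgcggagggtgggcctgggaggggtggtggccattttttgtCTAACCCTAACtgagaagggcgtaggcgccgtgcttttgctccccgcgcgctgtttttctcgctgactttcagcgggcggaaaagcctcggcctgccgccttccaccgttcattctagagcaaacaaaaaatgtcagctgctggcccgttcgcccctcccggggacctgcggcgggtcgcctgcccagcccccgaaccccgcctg

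The siControl libraries held 90698675, 78167377 and 56625768 estimated reads over all transcripts, of which the most-read transcripts took 23253558, 20241161 and 14862080. The sum over all transcripts counts many reads more than once. The deposited tables appeared to credit a read to each transcript of a gene that it fitted. In 699 pairs 1 transcript contained another, and 570, 571 and 558 of these had reads in siControl replicates 1, 2 and 3. The outer transcript never had fewer reads there. In the knockdown libraries this held for 99.5 to 100% of the pairs with reads. How reads shared with other places in the genome were counted is not settled by the tables. Of the 1185 genes with all their 50-base stretches repeated elsewhere 1072 (90.5%) had no read, against 55.4% of genes with 50 to under 100% repeated and 54.5% with none. Yet RN7SL1 and RN7SL2, largely copies of each other, both had high counts. A zero for a gene with many copies was therefore read as no information. Levels are given in TPM, the number of copies of a transcript in a fixed total of transcripts, from reads divided by the effective length. As a check of the labels, DKC1 stood at 28.7, 31.0 and 28.7 TPM in siControl and 4.37, 4.25 and 4.27 TPM in siDyskerin, and GAR1 at 2.82, 2.68 and 3.24 TPM in siControl and 0.460, 0.427 and 0.489 TPM in siGAR1.

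Protein-coding RNA filled the nuclear libraries by reads, whereas by molecules short noncoding RNA led as annotated. Protein-coding RNA led by molecules once overlapping records and families of short RNAs were counted once. Both orders rest on effective lengths, which are small for short RNAs. With annotated lengths RMRP came to 11972 TPM instead of 19011 and RN7SL1 to 10131 instead of 16444. The longer mRNAs of GAPDH and HSP90AB1 came to 832 instead of 617 and 726 instead of 414. The class shares by TPM were not computed with annotated lengths. Protein-coding genes took 90.6, 90.6 and 90.0% of the reads (90.4 ± 0.356%, SD, n = 3), short noncoding RNA 6.67, 6.56 and 7.18% (6.80 ± 0.328%), long noncoding RNA 1.86, 1.93 and 1.97% (1.92 ± 0.0578%) and genes of the mitochondrial genome 0.384, 0.427 and 0.373% (0.394 ± 0.0286%). On the TPM scale, which counts molecules and not bases, the same short RNAs made up 53.8, 53.7 and 56.2% of the sum (54.6 ± 1.43%) and protein-coding genes 42.7, 42.6 and 40.4% (41.9 ± 1.31%). In replicate 3, the shallowest library, the short RNA share was the highest on both scales.

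**Figure D1:**
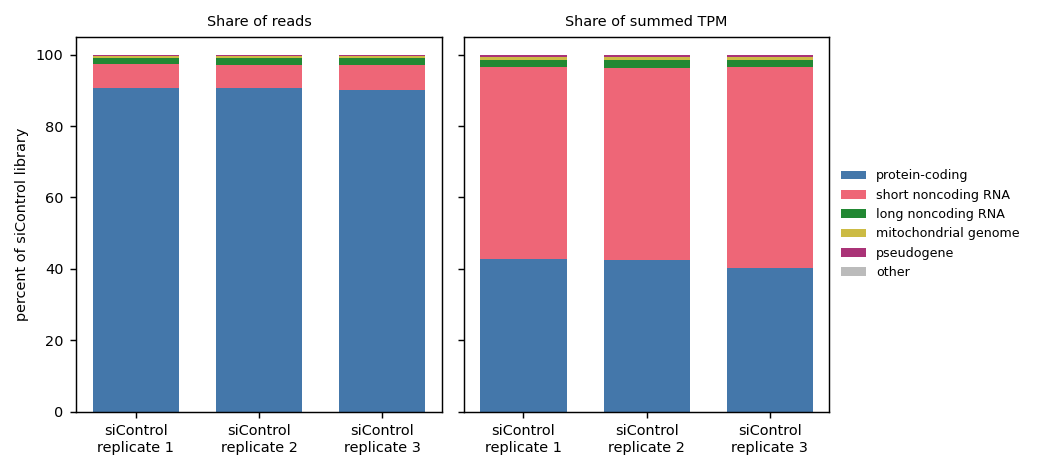
Share of each RNA class (percent, vertical axis) in the 3 siControl libraries, from reads (left) and from summed TPM (right), each gene taken as its most-read transcript. Protein-coding genes fill 90.0 to 90.6% of the reads and short noncoding RNA 53.7 to 56.2% of the TPM, with overlapping records each counted.

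Some short RNAs are entered in the annotation more than once, as overlapping records, whose shared reads were counted in each, or as families of near-identical copies. With 1 record kept of each such set, short noncoding RNA took 4.09, 4.04 and 4.39% of the reads (4.17 ± 0.189%) and 42.2 ± 1.38% of the TPM, under the 54.8, 54.7 and 52.5% of protein-coding genes. The order of the classes by TPM thus turned with this choice, which was made after seeing the data. The class shares did not differ detectably from those of the 6 knockdown libraries. The differences of siControl minus knockdowns were 0.122 percentage points for protein-coding genes, -0.111 for short and -0.00194 for long noncoding RNA and 0.00695 for the mitochondrial genome, each with an adjusted p of 0.952 (exact two-sided permutation test of 3 against 6 libraries, adjusted over the 4 classes). The smallest p that this design allows is 0.0238.

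The molecules were concentrated in few genes and the reads were not. Of the summed TPM, 10 gene records held 49.4, 49.3 and 51.6%, whereas 978 to 994 genes were needed for 50% of the reads. With overlapping records and families counted once, 10 genes held 39.6, 39.5 and 41.7% of the TPM. Then 62, 63 and 48 genes held 50% of it in place of 12, 12 and 8. By annotated type, the records called misc_RNA, led by 7SK and the RN7SL genes, held 28.3 ± 0.624% of the TPM, small nuclear RNAs 13.4 ± 0.644%, ribozymes 8.26 ± 0.176%, small nucleolar RNAs 3.92 ± 0.254% and small Cajal body RNAs 0.660 ± 0.0231%. GENCODE 44 files RN7SK itself under small nuclear RNA and an overlapping 7SK record under misc_RNA, so both types carried the same reads. Micro-RNA precursors held 0.0332 ± 0.00782%.

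RN7SK, with its overlapping record 7SK, had the highest TPM of the single gene records. The genes RN7SL1 and RN7SL2, which encode the same RNA, had means of 16444 and 16937 TPM and were not added together. RN7SK had 28601, 28876 and 31991 TPM in siControl replicates 1, 2 and 3, and 77.1% of its stretches occur elsewhere. RMRP followed with 19261, 18423 and 19351 TPM (19011 ± 512 TPM, SD, n = 3). The nucleolar U3 RNA SNORD3A, which directs early cleavage of the ribosomal RNA precursor, had 2045, 2440 and 2759 TPM, but 92.9% of its stretches occur elsewhere, so its level may be affected by shared reads. The U17 genes SNORA73A and SNORA73B stood at 1786, 1675 and 1917 TPM and 1585, 1443 and 1803 TPM. RPPH1 had 1011, 1117 and 952 TPM, so RNase MRP RNA stood far above RNase P RNA in every library.

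Of the 29 listed stable short nuclear RNAs, 22 were expressed, meaning above 1 TPM in each siControl library, 2 were low and 5 were near silent, meaning under 0.1 TPM in each. RNU2-2P had 1128, 1178 and 1295 TPM, with 61.3% of its stretches repeated elsewhere, so its level may be affected by shared reads. The U4 gene RNU4-2, with 1.09% repeated, had 532, 561 and 767 TPM. The U5 genes, whose RNA belongs to the same spliceosome, were close to the floor: RNU5B-1 had 13, 7 and 3 reads and RNU5A-1 6, 4 and 1, with 13.4% of the stretches of each repeated. SNORD118, the U8 RNA, had 11, 16 and 11 reads. Of the small nuclear RNAs of the minor spliceosome, which removes a rare class of introns, RNU12 had 95.7, 118 and 128 TPM, RNU11 30.4 ± 5.73 TPM and RNU6ATAC 21.1 ± 0.628 TPM (SD, n = 3). The Cajal body RNAs SCARNA2, SCARNA10, SCARNA7 and SCARNA13 stood at 804 ± 49.9, 446 ± 20.8, 307 ± 3.02 and 195 ± 6.45 TPM. RNU1-1, RNU6-1 and RNU7-1 were listed at 0 reads in every library, and all stretches of each are repeated elsewhere. RNU2-1, with 47.9% repeated, also had 0 reads. The effective lengths of such short RNAs are small, which raises their TPM: with the annotated in place of the effective length, RNU4-2 came to 244 TPM instead of 620 and RNU2-2P to 591 instead of 1200.

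Telomerase RNA stood apart from this group. TERC (chr3:169764520-169765060) had 0 reads in each of the 3 libraries, which allows at most 3 reads a library or 0.141 TPM in the shallowest. None of its 50-base stretches occurs in the most-read transcript of a gene at another locus, so sequence shared with those did not hide it. The overlapping record Telomerase-vert also had 0 reads. Its neighbour MYNN, 8.34 kb away, had 1.89, 2.12 and 2.19 TPM, and ACTRT3 between them had 0 reads. TERT (chr5:1253147-1295068), the catalytic subunit, had 1, 1 and 0 reads, while its neighbour CLPTM1L, 22.7 kb away, had 26.8, 24.9 and 24.3 TPM. On the other side SLC6A18, 6.96 kb from TERT, and SLC6A19, 28.0 kb from it, had 0 reads in each library. Of the 12 listed telomere genes 10 were expressed: the shelterin protein genes TERF2IP, ACD, TERF2, TERF1, TINF2 and POT1 stood between 1.72 and 6.07 TPM. ATRX, a chromatin remodeller that works with DAXX at telomeres, had 4.61, 5.20 and 5.06 TPM, and DAXX 4.45, 4.21 and 4.09 TPM. The transcripts of highest TPM gave 11.1 for ATRX, 5.17 for TERF2 and 3.87 for POT1. Transcript levels do not tell whether a protein was made.

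Among the listed long noncoding RNAs DANCR, a spliced RNA, had 79.8, 81.6 and 79.0 TPM. SNHG3, the host gene of the U17 RNAs, stood at 125, 119 and 133 TPM, but in a retained-intron transcript that spans them. It had 22782, 18599 and 15425 reads, no more than SNORA73A (12688, 10199 and 8431 reads) and SNORA73B (10985, 8680 and 7736 reads) together, so no level of the host itself was read from it. MALAT1 (ENSG00000251562.11, chr11:65497640-65508073), the nuclear marker, had 57.5, 71.6 and 72.7 TPM and 36126, 39839 and 30768 reads, rank 22 of all genes by reads and rank 251 by TPM. Its value rests on the full-length transcript of 8708 bases, and the shorter MALAT1 transcript of highest TPM reached 188 TPM. NEAT1 had 7.37, 7.94 and 9.03 TPM in its long transcript of 22743 bases and 41.3 TPM in its transcript of highest TPM. Of 26 listed long noncoding RNAs 18 were expressed. NORAD (18.2, 19.4 and 18.8 TPM), TUG1 (9.02 ± 0.390 TPM) and PVT1 (10.2 TPM) were among them. HOTAIR, transcribed from the HOXC cluster, was low at 0.186, 0.175 and 0.113 TPM, H19 had 1, 1 and 0 reads, and the imprinted MEG3 had 0 reads in each library (at most 0.00808 TPM).

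Some RNAs of the cytoplasm were present at high levels in these nuclear libraries. RN7SL2 and RN7SL1 had 16658, 16678 and 17476 TPM and 16409, 16283 and 16639 TPM, although 86.5 and 84.4% of their stretches are repeated elsewhere, chiefly in each other and in further copies. Of the 10 listed cytoplasmic small RNAs 6 were expressed, 3 low and 1 near silent, and the brain cytoplasmic RNA gene BCYRN1 had 12.6, 16.2 and 17.5 TPM. The Y and vault RNAs had few reads. RNY3 and RNY1 passed 1 TPM in each library with 16, 20 and 5 reads and 14, 11 and 2 reads, while RNY4 had 0, 1 and 0, VTRNA1-1 had 1 read in each library and VTRNA1-2 none. RNY5 was not matched. Of the mitochondrially encoded genes the 13 mRNAs stood between 45.3 and 350 TPM, MT-CO1 at 191, 220 and 198 TPM, while the ribosomal RNAs MT-RNR1 and MT-RNR2 had 0, 1 and 0 reads and 0 reads, after the removal of ribosomal RNA by kit and by alignment. All 23 listed mRNAs known for high cytoplasmic levels were expressed (10.1 to 617 TPM), led by GAPDH at 646, 614 and 589 TPM and ENO1 at 452, 439 and 430 TPM.

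In every siControl library GAPDH (617 ± 28.7 TPM) stood above MALAT1 (67.3 ± 8.49 TPM). The label of nuclear RNA therefore meets a mixed set of markers, with the short nuclear RNAs and MALAT1 abundant and the signal recognition particle RNA, mitochondrial mRNAs and housekeeping mRNAs abundant too. No cytoplasmic library was analysed here, so how much of each RNA came from outside the nucleus was not tested. Nuclei were collected as a pellet after detergent lysis of the outer membrane, and a read inside an unannotated intron had no transcript to be counted in.

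**Figure D2:**
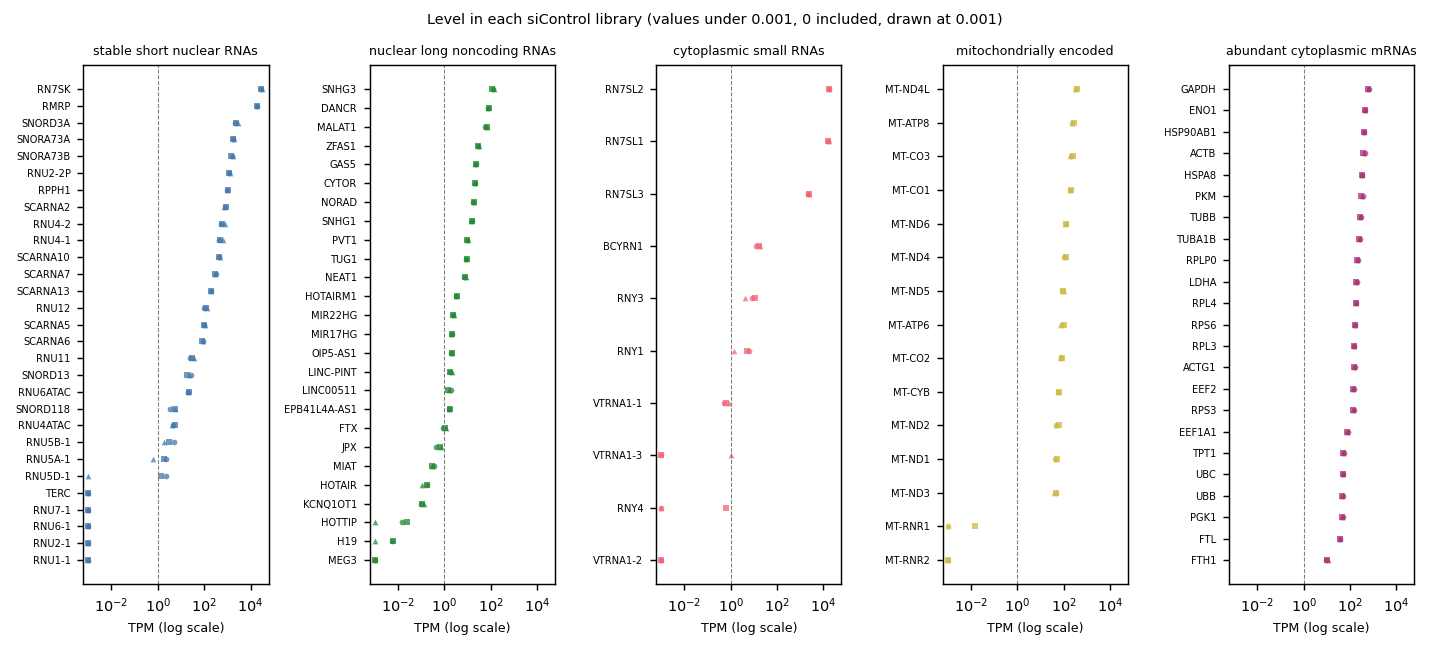
TPM (log scale, horizontal) of each listed gene in siControl replicates 1 (circle), 2 (square) and 3 (triangle), with the dashed line at 1 TPM. RN7SK, RMRP, RN7SL1 and RN7SL2 lie highest, at 16283 TPM or more, and TERC, at 0 reads, is drawn at the left edge.

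Of all 58425 genes 9959 were expressed, 10321 were low and 38145 (65.3%) were near silent, with 27791 having no read in any siControl library. Of 19770 protein-coding genes 8923 (45.1%) were expressed and 6923 (35.0%) near silent. Only 498 of 15108 long noncoding RNA genes (3.30%) and 238 of 7040 short ones (3.38%) were expressed. The expressed protein-coding genes had a median of 4.24 TPM, and their coefficient of variation over the 3 libraries had a median of 5.49%, from 6.58% among the lowest 2231 genes by level to 4.48% among the highest 2231. Their most-read transcript was annotated as protein-coding in 94.2%, as a target of nonsense-mediated decay in 3.04% and as a retained intron in 2.14%.

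The protein-coding genes of highest TPM encoded small and basic cell components, in an order that depends on the length used. TMSB10, an actin-binding thymosin, had 769, 741 and 748 TPM, the histone gene H3C2 783, 750 and 712 TPM, and RPS29 and RPS21, of the small ribosomal subunit, 745 ± 6.53 and 715 ± 27.2 TPM. With annotated in place of effective lengths, GAPDH (832 TPM), HSP90AB1 (726), TMSB10 (697) and ENO1 (680) stood above H3C2 (514), RPS29 (460) and RPS21 (436). Of the cytosolic ribosomal protein genes 80 of 81 were expressed and of the mitochondrial ones 75 of 75. By reads, the leading mRNAs were the chaperone HSP90AB1 (124355, 106565 and 75281 reads), GAPDH, the chaperone HSPA8, the glycolytic enzymes ENO1 and PKM, the scaffold protein gene AHNAK (18787 bases, 68988, 59129 and 47176 reads) and ACTB.

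Replication-dependent histone mRNAs, which carry no poly(A) tail and are made in S phase, were well captured. Of 68 clustered histone genes 37 were expressed, 11 low and 20 near silent. H2AC12 (497 ± 5.53 TPM), H2AC7 (435 ± 6.25 TPM) and H4C2 (433 ± 8.69 TPM) followed H3C2. The genes of this family were used unevenly: of the linker histones, H1-2 had 375, 378 and 381 TPM and H1-3 had 0 reads in every library (at most 0.107 TPM), although none of the stretches of either is repeated elsewhere. All 20 listed cell cycle genes were expressed, led by TYMS (78.2 ± 1.86 TPM) and PCNA (76.7 TPM). TOP2A, which untangles DNA at mitosis, had 32.2, 44.2 and 41.2 TPM and MKI67 6.88, 9.42 and 9.07 TPM, both lowest in replicate 1.

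Several genes known from mesenchymal cells were among the abundant mRNAs. Of 30 listed genes of mesenchyme and contraction, 19 were expressed (63.3%, beside 45.1% of all protein-coding genes), 6 low and 5 near silent. The galectin LGALS1 had 439, 434 and 452 TPM, the intermediate filament gene VIM 365, 340 and 336 TPM (600 TPM in its transcript of highest TPM) and the membrane-binding ANXA2 280, 271 and 257 TPM. THBS1 (ENSG00000137801.11, chr15:39581079-39599466), which encodes the matrix glycoprotein thrombospondin and is a marker of the line here, had 47.1, 45.6 and 46.7 TPM. FN1 (29.3 ± 1.34 TPM), TAGLN (27.4 TPM) and CD44 (23.9 ± 0.659 TPM, 38.3 in its transcript of highest TPM) were expressed as well. Yet TWIST1, DCN and THBS2 had 0 reads in every library, and POSTN, a periosteal matrix gene, had 1, 2 and 0 reads.

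Genes of the osteoblast, the bone-forming cell, were mostly low or near silent. Of 21 listed, 4 were expressed, 7 low and 10 near silent. SPARC (osteonectin) had 80.1, 70.8 and 68.3 TPM, BMP4 7.67, 6.43 and 6.35 TPM, the decoy receptor gene TNFRSF11B 4.71, 5.39 and 5.42 TPM and COL1A1 2.78, 2.71 and 2.91 TPM. In their transcripts of highest TPM, SPARC reached 128, COL1A1 8.95 and ALPL 1.62 TPM. The master regulator RUNX2 was low at 0.864, 0.877 and 0.776 TPM, as was the alkaline phosphatase gene ALPL at 0.996, 0.719 and 0.902 TPM. SP7, the osteoblast factor that acts after RUNX2, had 0 reads in each library, as did DLX5 and MEPE.

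SPP1 (osteopontin, ENSG00000118785.15, chr4:87975667-87983532) had 1.01, 1.21 and 0.945 TPM from 124, 128 and 73 reads. It fell just short of the expressed group through replicate 3. Of its bone matrix neighbours on chromosome 4, IBSP had 1, 0 and 0 reads, MEPE none and DMP1 1, 2 and 4 reads, whereas PKD2 on the other side had 1.22, 1.29 and 1.37 TPM. The chains of type I collagen, which join in 1 molecule of bone matrix, were unequal, with 1549, 1282 and 1006 reads for COL1A1 and 0, 2 and 1 for COL1A2. Of the 11 fixed osteoblast markers, SPARC and COL1A1 were above 1 TPM in all siControl libraries. This count rests on the deposited scale, on which the most-read transcripts sum to 239459 to 248244 TPM in siControl. With TPM rescaled over genes, 14261 genes passed 1 TPM in place of 9959. The standing of low markers such as SPP1, RUNX2 and ALPL therefore depends on the scale. Of 8 cartilage genes 1 was expressed, the regulator SOX9 (8.24, 7.71 and 8.74 TPM), and the cartilage collagen COL2A1 had 0 reads.

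Markers of other lineages were near silent to differing extents, beside 35.0% of all protein-coding genes: 12 of 13 blood, 5 of 7 endothelial, 6 of 7 liver, lung and pancreas, 9 of 15 epithelial and 5 of 11 neural genes. Of the blood genes 0 were expressed: HBB and CD3E had 0 reads and PTPRC, the pan-leukocyte marker, 6, 5 and 1 reads. Of 7 endothelial genes 0 were expressed, PECAM1 having 7, 6 and 1 reads. Of 15 epithelial genes 2 were expressed, the keratins KRT18 (35.1, 34.4 and 31.4 TPM) and KRT8 (34.0, 30.8 and 31.0 TPM), while CDH1 had 0.132, 0.132 and 0.146 TPM and GRHL2 0 reads. Outside that list the keratins KRT81 (35.1 ± 1.17 TPM), KRT80 (16.4 ± 1.64 TPM) and KRT17 (9.79 ± 1.40 TPM) were expressed as well. CDH2, the cadherin of mesenchymal cells, had 7.17, 7.19 and 7.22 TPM. Of 11 neural genes TUBB3 (15.8 ± 1.24 TPM), NEFL (3.29 TPM) and OLIG2 (1.14 TPM) were expressed. ALB, TTR, SFTPC and INS had 0 reads each.

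**Figure D3:**
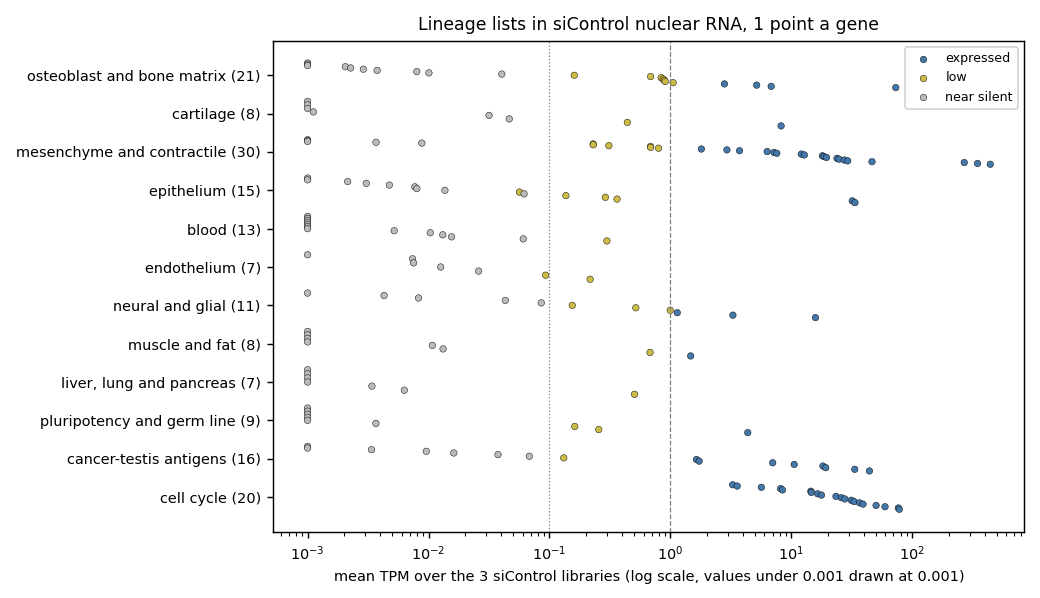
Mean TPM over the 3 siControl libraries (log scale, horizontal) of each gene of 12 lists, with the number of genes in brackets and lines at 0.1 and 1 TPM. All 20 cell cycle genes and 19 of 30 mesenchymal genes are expressed, against 4 of 21 osteoblast and 0 of 13 blood genes.

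Germ-line genes of the cancer-testis group, which many tumours switch on, split into high and silent members. Of 16 listed, 8 were expressed, 1 was low and 7 near silent. PRAME had 46.9, 44.5 and 41.4 TPM, MAGEA4 34.6, 33.7 and 32.1 TPM and MAGEA1 19.3 ± 0.226 TPM (SD, n = 3). MAGEC2 had 0, 1 and 2 reads and SSX1 0, 1 and 0. SSX2 and CTAG1B, at 0, consist wholly of repeated stretches. Of the pluripotency and germ cell genes the RNA-binding LIN28B was expressed (3.88, 4.79 and 4.42 TPM), and POU5F1, NANOG, DPPA4, DAZL and DDX4 had 0 reads.

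HOX genes, which record position along the body axis, were detected from all 4 clusters at low levels. Of 39 genes 9 were expressed, 20 low and 10 near silent. HOXB9 had 7.47, 6.32 and 6.87 TPM and HOXB7 3.10, 2.73 and 3.28 TPM, and the libraries of HOXB9 lay above those of every other HOX gene. HOXA10, HOXB6, HOXC9, HOXD8, HOXC10, HOXA9 and HOXC13 followed at means of 1.09 to 1.52 TPM, and neighbours in that order overlapped between libraries. By cluster, 3 of 10 HOXB, 3 of 9 HOXC, 2 of 11 HOXA and 1 of 9 HOXD genes were expressed. HOXB1, at the front end of its cluster, had 0 reads and HOXD13, at the far end of its own, 0, 1 and 1 reads.

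**Figure D4:**
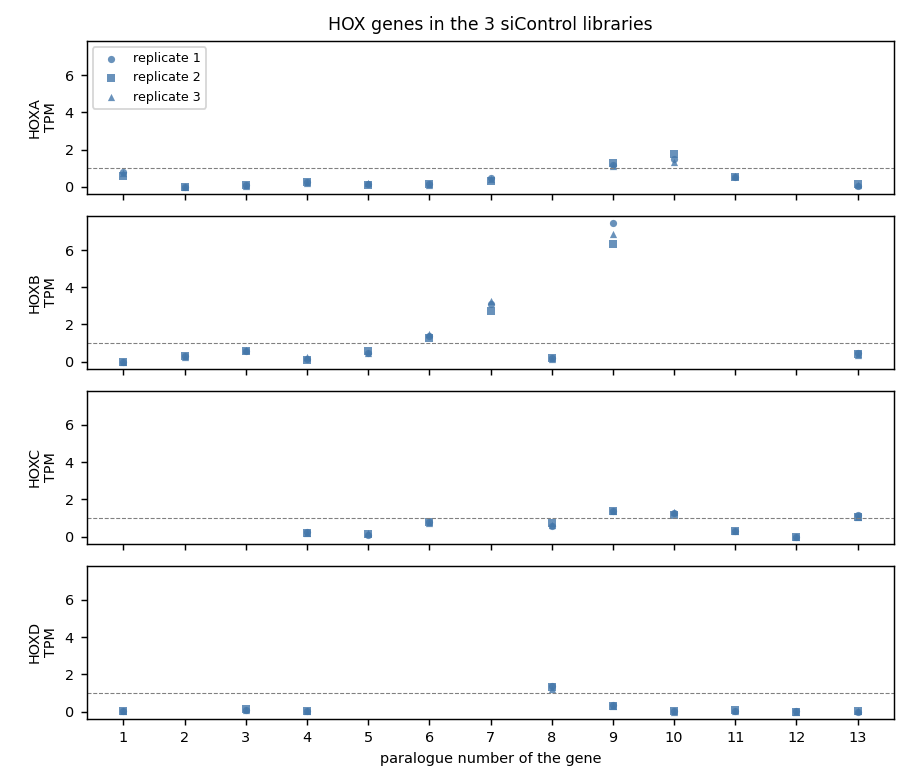
TPM (vertical) of the HOX genes by paralogue number (horizontal) in each cluster, 1 symbol a siControl library, dashed line at 1 TPM. HOXB9 and HOXB7 stand highest, at 6.32 to 7.47 and 2.73 to 3.28 TPM.

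Of 15 growth control genes 12 were expressed, 1 was low and 2 near silent. CDKN2A, which encodes p16 and p14ARF and lies at chr9:21967752-21995301, had 0 reads in every library (at most 0.0487 TPM), and 3.09% of its stretches occur elsewhere. On its flanks MTAP, 30.1 kb away, had 6.91, 7.51 and 6.93 TPM and CDKN2B, 7.60 kb away, 0.396, 0.439 and 0.443 TPM. The kinases that p16 inhibits were high, CDK4 at 33.4, 32.6 and 29.7 TPM (49.7 in its transcript of highest TPM) and CDK6 at 27.7 ± 2.47 TPM (SD, n = 3). MYC (29.1 ± 0.833 TPM), CCND2 (29.1 ± 1.23 TPM), CDKN1A (27.3 ± 1.62 TPM) and RB1 (3.98 ± 0.338 TPM) were expressed, and MYCN was near silent.

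Among 24 receptor tyrosine kinases 12 were expressed. AXL had 71.2, 65.6 and 66.9 TPM, EPHA2 15.1, 13.3 and 14.3 TPM and MET 11.2, 11.7 and 11.9 TPM, with EGFR at 1.92, 1.90 and 2.12 TPM. KIT had 0 reads and ALK 1, 2 and 1. For adhesion, 10 of 25 integrin genes were expressed, led by ITGB1 (54.4 ± 2.47 TPM, and 108 TPM in its transcript of highest TPM), and 11 of 44 collagen genes, led by COL12A1 (19.8, 19.8 and 20.5 TPM) and COL4A2 (15.3 TPM). The chemokine CXCL8 was expressed at 17.4, 18.4 and 20.4 TPM, whereas IFNB1 had 0 reads and the interferon targets MX1, OAS1 and IFIT2 stood under 0.1 TPM in each library. Whether transfection with siRNA shaped these levels was not tested, since every group received it.

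Several large families of tissue-specific genes were mostly near silent. None of 397 olfactory receptor genes was expressed and 385 were near silent, 14 of them with 80% or more of their stretches repeated. Of 94 keratin-associated protein genes 1 was expressed and 90 were near silent. Of 39 beta defensins 0 were expressed and 38 near silent, 13 of them with 80% or more of their stretches repeated. Of 95 potassium channels 7 were expressed, 21 low and 67 near silent. Of 56 cytochromes P450 4 were expressed, 11 low and 41 near silent, led by CYP51A1 of cholesterol synthesis (17.2 ± 0.128 TPM). Of 508 genes named ZNF, most of which encode zinc finger repressors, 184 were expressed, 254 low and 70 near silent.

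Promoter sequence varied with the level of expression. Over the 250 bases before the start of the most-read transcript (19769 protein-coding genes, GRCh38), the dinucleotide CpG, the site of DNA methylation, occurred a median of 22 times in expressed genes (quartiles 16 and 29), 18 times in low genes (8 and 27) and 5 times in near silent genes (2 and 15). Of expressed genes 90.1% had 10 or more, of near silent genes 36.1% and of all protein-coding genes 67.6%. The letters TATAAA were found on either strand in 5.11% of expressed, 6.68% of low, 15.9% of near silent and 9.22% of all promoters. This is a description across genes, which are not independent replicates. With few or no reads the most-read transcript may start inside the gene, so its window need not be a promoter. How far this enters the values of near silent genes was not tested.

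The promoters below, with CpG in capitals, show that single genes depart from these medians. THBS1 was expressed and has 24 CpG. SPP1 has 3 and IBSP 4. TERT and CDKN2A, with no or almost no reads, have 28 and 27, more than THBS1. In genes with few reads the choice of start rests on those reads, and at 0 reads it is only an annotated one.
THBS1, chr15:39580829-39581078, plus strand: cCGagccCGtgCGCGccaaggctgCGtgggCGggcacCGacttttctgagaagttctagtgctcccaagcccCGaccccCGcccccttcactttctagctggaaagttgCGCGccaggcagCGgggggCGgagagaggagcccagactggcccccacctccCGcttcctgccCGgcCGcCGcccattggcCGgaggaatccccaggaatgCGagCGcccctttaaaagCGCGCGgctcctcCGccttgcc
SPP1, chr4:87975464-87975713, plus strand: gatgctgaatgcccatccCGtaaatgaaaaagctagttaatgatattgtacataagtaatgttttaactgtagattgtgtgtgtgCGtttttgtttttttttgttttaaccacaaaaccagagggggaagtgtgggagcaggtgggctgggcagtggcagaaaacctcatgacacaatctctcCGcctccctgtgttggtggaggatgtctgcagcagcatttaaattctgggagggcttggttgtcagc
IBSP, chr4:87799304-87799553, plus strand: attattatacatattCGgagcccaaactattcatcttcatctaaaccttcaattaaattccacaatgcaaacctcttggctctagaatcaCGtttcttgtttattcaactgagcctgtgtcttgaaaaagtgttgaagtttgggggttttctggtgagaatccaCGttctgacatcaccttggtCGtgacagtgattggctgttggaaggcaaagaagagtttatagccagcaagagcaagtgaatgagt
TERT, chr5:1295069-1295318, minus strand: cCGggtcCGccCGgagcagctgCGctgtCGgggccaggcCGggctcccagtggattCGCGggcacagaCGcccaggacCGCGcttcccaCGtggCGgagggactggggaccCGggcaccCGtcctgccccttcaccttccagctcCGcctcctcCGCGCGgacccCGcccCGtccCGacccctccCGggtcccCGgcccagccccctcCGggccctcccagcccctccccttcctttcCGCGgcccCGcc
CDKN2A, chr9:21994393-21994642, minus strand: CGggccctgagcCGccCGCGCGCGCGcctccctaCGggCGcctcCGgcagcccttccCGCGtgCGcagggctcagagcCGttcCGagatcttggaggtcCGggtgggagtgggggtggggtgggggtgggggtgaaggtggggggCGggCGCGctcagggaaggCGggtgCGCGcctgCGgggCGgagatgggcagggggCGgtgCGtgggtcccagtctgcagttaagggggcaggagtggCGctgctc

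The baseline was largely shared with the knockdown groups. By the same rule 9997 genes were expressed in siDyskerin and 9884 in siGAR1, of which 9669 (97.1% of the siControl genes and 96.7% of the siDyskerin genes) and 9626 (96.7 and 97.4%) were expressed in siControl too. Across all 17399 genes that passed the filter on low counts, edgeR's quasi-likelihood test called 1.18% after dyskerin knockdown (0.512% higher and 0.672% lower, at an adjusted p under 0.01 and an absolute log2 fold change above 1) and 0.328% after GAR1 knockdown (0.236% higher and 0.092% lower). Of the 552 listed genes 383 passed the filter, and of these 11 were called after dyskerin knockdown (5 higher, 6 lower, 2.87%) and 4 after GAR1 knockdown (2 higher, 2 lower, 1.04%). The lists held DKC1, the target itself, and genes known beforehand to differ, so these shares are given as counts only. The medians over the listed genes were -0.05 and -0.02 on the log2 scale, against -0.0094 and -0.0036 over all genes tested. Both comparisons share the siControl libraries. In bulk RNA, fewer cells of a kind and less RNA per cell cannot be told apart.

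Of the 3 markers, MALAT1 did not differ detectably and the others changed after dyskerin knockdown. The log2 fold change of MALAT1 was 0.00055 in siDyskerin (edgeR adjusted p = 0.999) and 0.21 in siGAR1 (edgeR adjusted p = 0.506), each with a standard error of 0.17. THBS1 had 23.4, 21.2 and 22.3 TPM in siDyskerin, under every siControl library. Its log2 fold change was -1.10 (standard error 0.06, edgeR adjusted p = 3.3e-11), and in siGAR1 it had 45.6, 41.8 and 40.0 TPM (log2 fold change -0.10, edgeR adjusted p = 0.30). SPP1 rose to 2.99, 3.33 and 2.89 TPM in siDyskerin (log2 fold change 1.52, standard error 0.12, edgeR adjusted p = 4.6e-09) and stood at 1.23, 1.33 and 1.45 TPM in siGAR1 (log2 fold change 0.38, edgeR adjusted p = 0.061).

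The most abundant stable RNAs of the baseline did not differ detectably. RN7SK differed by 0.02 and RMRP by -0.12 on the log2 scale after dyskerin knockdown, with standard errors of 0.08 and 0.06 and edgeR adjusted p of 0.92 and 0.20. Of the 29 listed stable short nuclear RNAs 21 were tested, and 3 were called after dyskerin knockdown, all of the H/ACA type. That is 14.3%, beside 1.18% of all genes tested, in a list chosen with earlier results known. SNORA73B fell to 576, 663 and 608 TPM in siDyskerin (log2 fold change -1.41, standard error 0.10, edgeR adjusted p = 4.0e-08) and SCARNA13 to 69.6, 87.0 and 82.4 TPM (log2 fold change -1.34, edgeR adjusted p = 1.6e-10). SNORA73A fell to 622, 688 and 669 TPM (log2 fold change -1.47, edgeR adjusted p = 0.0027), a call that was lost without any 1 siControl or siDyskerin library, the adjusted p then being 0.0104 to 0.0174, and with the replicate number as a block (0.0123). SNHG3, the host of both U17 RNAs, was called lower too (log2 fold change -1.29, edgeR adjusted p = 1.4e-08), but its transcript contains both and their reads, so its fall cannot be told apart from theirs.

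Of the lineage genes that were low at baseline, PDGFRA, a growth factor receptor of mesenchyme, rose from 0.525, 0.505 and 0.431 TPM to 1.13, 0.976 and 1.10 TPM in siDyskerin (log2 fold change 1.09, edgeR adjusted p = 5.5e-08), and TNNT2, a troponin of the heart, from 0.817, 0.631 and 0.590 TPM to 1.53, 1.53 and 1.76 TPM (log2 fold change 1.16, edgeR adjusted p = 5.9e-05). KRT14 (0.118, 0.0335 and 0.0185 TPM in siControl) and MYCN (0.0587, 0.0409 and 0.0464 TPM) were called higher with edgeR adjusted p of 0.0081 and 0.0086. Without single libraries these rose to at most 0.0457 and 0.0431, and both calls were then lost. The call of KRT14 was also lost with the replicate number as a block (adjusted p = 0.0177) and with summed reads (0.0265), and that of MYCN with summed reads (0.0103). After GAR1 knockdown the cytokine gene CSF2 (log2 fold change 1.35) and SALL4 (1.11) were higher, and the transcription factor gene SRF (-1.18) and the histone gene H2AC15 (-1.12) lower. Without siGAR1 replicate 1 the log2 fold change of H2AC15 was -0.995, just short of the threshold.

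**Figure D5:**
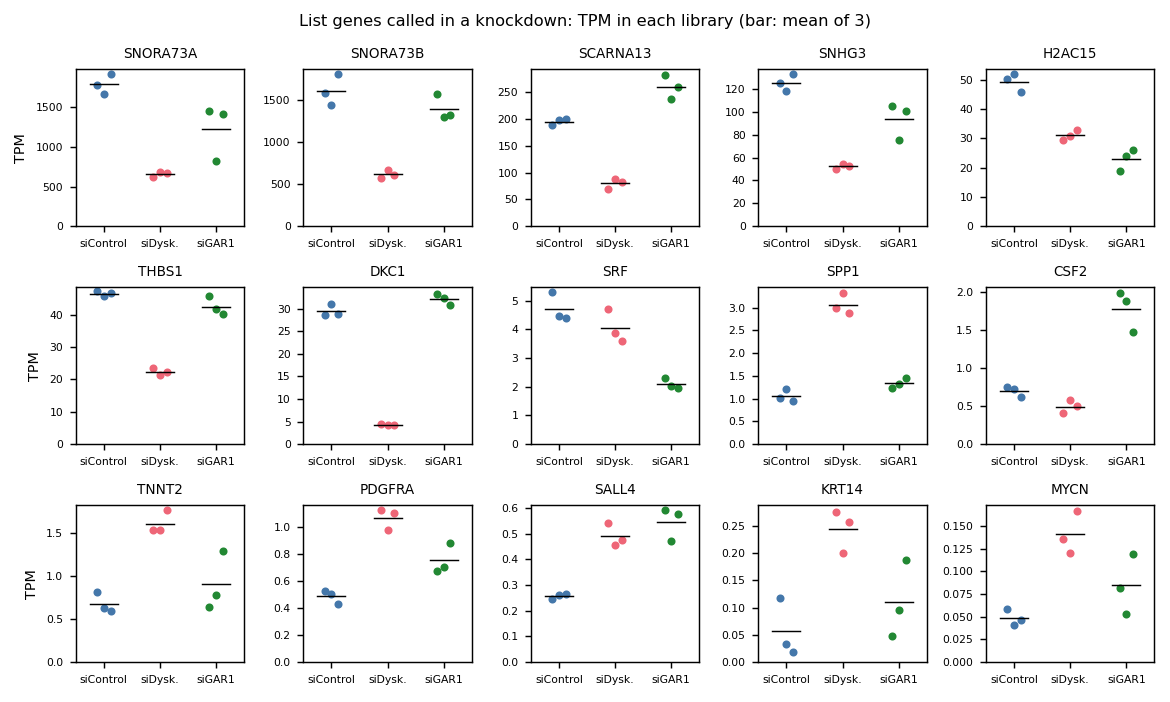
TPM (vertical, from 0) of the 15 listed genes called in a knockdown, in the 3 siControl, 3 siDyskerin (siDysk.) and 3 siGAR1 libraries, with a bar at each mean. THBS1 is lower and SPP1 higher in all 3 siDyskerin libraries than in any siControl library.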

How the data were processed

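Nuclear RNA of U2OS cells was sequenced as paired stranded reads after depletion of ribosomal RNA. Per the study's methods, reads were checked with FastQC 0.11.9, trimmed with Trim Galore 0.6.4, filtered against ribosomal and transfer RNA with Bowtie2 2.4.1 and quantified against GENCODE 27 with Salmon 1.2.0. For each library the authors deposited estimated counts of reads, TPM and the lengths of 200401 transcripts of GRCh38. The deposited TPM are scaled over all transcripts, so those of the most-read transcripts sum to 239459 to 248244 in siControl.

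Transcripts were matched by identifier to GENCODE 44 (195887 matched, 4514 not), and each gene was represented by its transcript with the most siControl reads. Over all transcripts the 9 libraries held 48838756 to 90698675 reads. Estimated counts were rounded, filtered with filterByExpr and tested with edgeR 4.0.16 in R 4.3.3 (TMM factors, quasi-likelihood test, all 9 libraries in 1 fit, Benjamini-Hochberg adjustment, call at adjusted p under 0.01 and absolute log2 fold change above 1). DESeq2 1.42.0 was an alternative. The code was tested on simulated data. A count of 0 was taken to allow 3 reads, which covers counting error only. The replicates are numbered in the labels with no word on separate cultures, so p-values measure the spread between these libraries.

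In deviations from the group means, siControl and siDyskerin libraries of the same number correlated at 0.397, 0.276 and 0.176, so the numbers were taken to pair these groups. Those of siControl and siGAR1 did so at -0.175, 0.0103 and 0.0622 and were not taken to pair. Replicate 3 was also the shallowest library of each group, and whether depth enters these correlations was not tested. Blocked values stand beside results whose call they change, and all other edgeR p-values are from fits without a block. Members and gene lists were chosen with earlier results of these data known. Named were the 3 markers, the most abundant genes, the top 4 and up to 4 near silent genes of each list, TERT, TERC, ATRX, CDKN2A and the listed genes called. Other genes were named after their values were seen. Alternatives were other TPM thresholds, summed transcripts, the transcript of highest TPM, annotated lengths, other normalization and filters, a replicate block and leaving out each library. Some items are not reported here.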

Additional observations from a re-analysis of the deposited data

Results flagged for a closer look

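Among the listed genes called in a knockdown, 5 differed between siDyskerin and siGAR1 by edgeR's quasi-likelihood test at an adjusted p under 0.01 and an absolute log2 difference above 1. With a smaller difference, THBS1 (-0.996), SRF (0.926), SNHG3 (-0.88), TNNT2 (0.78) and PDGFRA (0.44) also passed the p threshold. The log2 difference was -2.99 for DKC1, the target of siDyskerin, -1.73 for SCARNA13, -1.24 for SNORA73B, 1.14 for SPP1 and -1.89 for CSF2. SCARNA13 had 188, 198 and 200 TPM in siControl, 69.6, 87.0 and 82.4 TPM in siDyskerin and 282, 236 and 259 TPM in siGAR1, so the knockdown groups lay on opposite sides of the baseline. CSF2 had 0.744, 0.718 and 0.623 TPM in siControl, 0.403, 0.578 and 0.496 TPM in siDyskerin and 1.98, 1.88 and 1.47 TPM in siGAR1.

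Transcripts with no gene match were left out of every comparison. They held up to 3.83% of the siControl reads summed over all transcripts, a total that counts many reads more than once. Beside the most-read transcripts alone they weighed more: kept in that total, they took the protein-coding share from 90.4 to 79.0%. Of these 4514 transcripts 1699 stood above 1 TPM in each siControl library.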

How the results depend on the processing

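The class shares depended most on the processing. With reads summed over all transcripts, protein-coding, long noncoding, short noncoding and mitochondrial genes took 96.9, 0.973, 1.83 and 0.106% of the reads, by summed TPM 41.9, 2.01, 54.6 and 0.726%, and with unmatched transcripts kept in the total 79.0, 1.68, 5.94 and 0.345%. Counting overlapping records and families once, an alternative chosen after seeing the data, gave 93.2, 1.78 and 4.17% for the first 3 classes. Leaving out 1 siControl library gave 90.3 to 90.6, 1.89 to 1.95, 6.62 to 6.92 and 0.378 to 0.405%, 10074 to 10148 expressed and 38756 to 38922 near silent genes. Other thresholds gave 12075 (0.5 TPM) and 7463 (2 TPM) expressed and 35032 (0.05 TPM) and 41052 (0.2 TPM) near silent genes, TPM summed over transcripts 12666 and 36176, and TPM rescaled over genes 14261 and 32274. Calls numbered 163 to 219 after dyskerin and 46 to 62 after GAR1 knockdown when 1 library was left out, 205 and 60 with relative log expression factors, 174 and 40 with DESeq2, 235 and 84 without the filter and 173 and 52 with summed reads. With replicate number as a block there were 208 and 62. Of the 15 listed genes called, the block removed SNORA73A and KRT14 and kept the others. Of 179 levels, 51 moved by over 1.5 times with annotated lengths and 35 with the transcript of highest TPM. No call changed direction, but the order of the classes by TPM turned when overlapping records and families were counted once. The small difference in share between siControl and knockdowns changed sign for protein-coding genes without siGAR1 replicate 3 (0.122 to -0.0586 percentage points), for short noncoding RNA without that library or siControl replicate 2, and for long noncoding and mitochondrial genes under 5 and 3 alternatives. The cause of the changes was not tested. Depth limits genes at 0 reads, which were not detectable at this depth and not shown to be absent.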
